A study of Mus musculus with 9 samples.

Results

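The genes for 10 histone acetyltransferases, *Crebbp*, *Ep300*, *Kat2a*, *Kat2b*, *Kat5*, *Kat6a*, *Kat6b*, *Kat7*, *Kat8* and *Hat1*, were followed in resting and activated mouse B cells. They were taken by gene symbol from the 17596 rows of the deposited expression table, and all 10 were found there. RNA sequencing had been done on primary splenic B cells from control *Mb1Cre* mice and from *Mct1 f/f Mb1Cre* mice, in which Cre deletes part of *Mct1* in the B cell lineage. Naive cells without treatment (day 0) gave 2 libraries of each genotype, and cells kept in culture until day 3 with IL-4 at 50 ng/ml and LPS at 10 μg/ml, which activate B cells and start class switching, gave 2 control and 3 *Mct1 f/f Mb1Cre* libraries.

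The study's methods describe young adult mice on the C57BL/6J background. All groups carried *Mb1Cre*, in which the B lineage gene *Mb1* (*Cd79a*) drives the Cre recombinase. The floxed segment ran from exon 1 to intron 3 of *Mct1*, the monocarboxylate transporter gene that the table lists as *Slc16a1*. Neither the labels nor the methods say whether the libraries of a group came from separate mice, so p-values measure the spread between these libraries, which may be technical.

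Histone acetyltransferases move the acetyl group of acetyl-CoA to lysines of histones, which loosens chromatin and marks active promoters and enhancers. CBP and p300, the products of *Crebbp* and *Ep300*, acetylate H3K27 at enhancers. GCN5 and PCAF (*Kat2a*, *Kat2b*) act on H3K9 within the SAGA and ATAC complexes, and the MYST enzymes (*Kat5*, *Kat6a*, *Kat6b*, *Kat7*, *Kat8*) work in their own complexes on H4 and H3. *Hat1* differs from these because it acetylates newly made H4 before it is built into chromatin, a step of DNA replication.

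Expression was given in FPKM, fragments scaled to transcript length and to mapped fragments, so levels can be compared between genes per length. A comparison was made on log2(FPKM + 1) with limma over 10823 genes, those averaging 1 FPKM or more, all 10 acetyltransferase genes included. A gene was called at a Benjamini-Hochberg adjusted p under 0.05 if its log2 fold change also exceeded 0.5 in either direction. The added 1 FPKM understates the fold change of low genes such as *Kat6b*. Sequencing depth is unknown because the values hold no read counts, and the FPKM of all genes summed to between 477079 and 563586 per library.

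The libraries were checked against their labels. *Slc16a1* had 22.6 and 23.0 FPKM in the control libraries on day 3 and 10.8, 9.81 and 9.50 FPKM in the *Mct1 f/f Mb1Cre* ones (log2 fold change -1.11, adjusted p = 9.07e-06), and on day 0 it had 4.33 and 3.80 FPKM in the control and 3.71 and 4.06 FPKM in the *Mct1 f/f Mb1Cre* libraries (log2 fold change -0.05, adjusted p = 0.844). Its level therefore separated the genotypes on day 3 and did not check the day 0 labels. The 6 B cell markers were high in every library, and their sum was between 4183 and 4612 FPKM on day 0 and between 2182 and 2271 FPKM on day 3, so that it was lower on the same day as the members called lower. The 18 markers of myeloid, erythroid, T, NK cells and platelets summed to between 24.5 and 36.8 FPKM on day 3, to between 1155 and 1340 FPKM in 3 of the day 0 libraries and to 1988 FPKM in *Mct1 f/f Mb1Cre* replicate 1 of day 0, and 13 of them were at least 10 times higher on day 0. *Hbb-bs* was at 0 in all day 3 libraries. *Ddx3y*, a Y-linked gene, had at most 0.24 FPKM in 3 of the 4 day 0 libraries, 31.1 FPKM in that same *Mct1 f/f Mb1Cre* replicate 1, and between 14.7 and 16.9 FPKM on day 3. In control cells, day therefore cannot be told apart from sex, nor in either genotype from the share of other cells, and their part in the activation results was not tested. No cells were kept in culture without LPS and IL-4, so treatment and time in culture cannot be told apart either. Activation here means day 3 against day 0. *Mct1 f/f Mb1Cre* replicate 1 of day 0 stood apart, and the activation calls, the paralogue ratios, the day 0 comparison and the *Crebbp* interaction are also given without it. Without that library, day cannot be told apart from sex in either genotype. In bulk RNA, fewer cells of a type and less RNA per cell also cannot be told apart.

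In naive B cells, *Kat6a*, *Ep300* and *Kat7* were the most highly expressed of the 10 genes. In control libraries of day 0 their mean levels were 42.2, 41.1 and 38.5 FPKM, followed by *Kat2a* with 32.4, *Kat5* with 30.7, *Hat1* with 21.3, *Kat8* with 20.7, *Crebbp* with 18.3, *Kat2b* with 9.27 and *Kat6b* with 5.68 FPKM. The libraries of *Kat6a* and *Ep300* overlapped, as did those of *Hat1* and *Kat8*, and no other neighbours in this order overlapped. On day 3 the order of the control means was *Hat1* (50.2 FPKM), *Kat7* (41.4), *Kat2a* (29.4), *Kat5* (25.8), *Ep300* (23.6), *Kat8* (18.8), *Kat6a* (17.8), *Crebbp* (7.43), *Kat2b* (4.91) and *Kat6b* (2.44), with no overlap between neighbours. *Hat1* moved from the sixth place to the first and *Kat6a* from the first to the seventh. The *Mct1 f/f Mb1Cre* libraries had the same order on day 0, and on day 3 they differed only in that *Kat6a* (19.5 FPKM) and *Kat8* (17.8 FPKM), which overlapped, changed places. There, *Kat5* and *Ep300* overlapped as well.

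**Figure D1:**
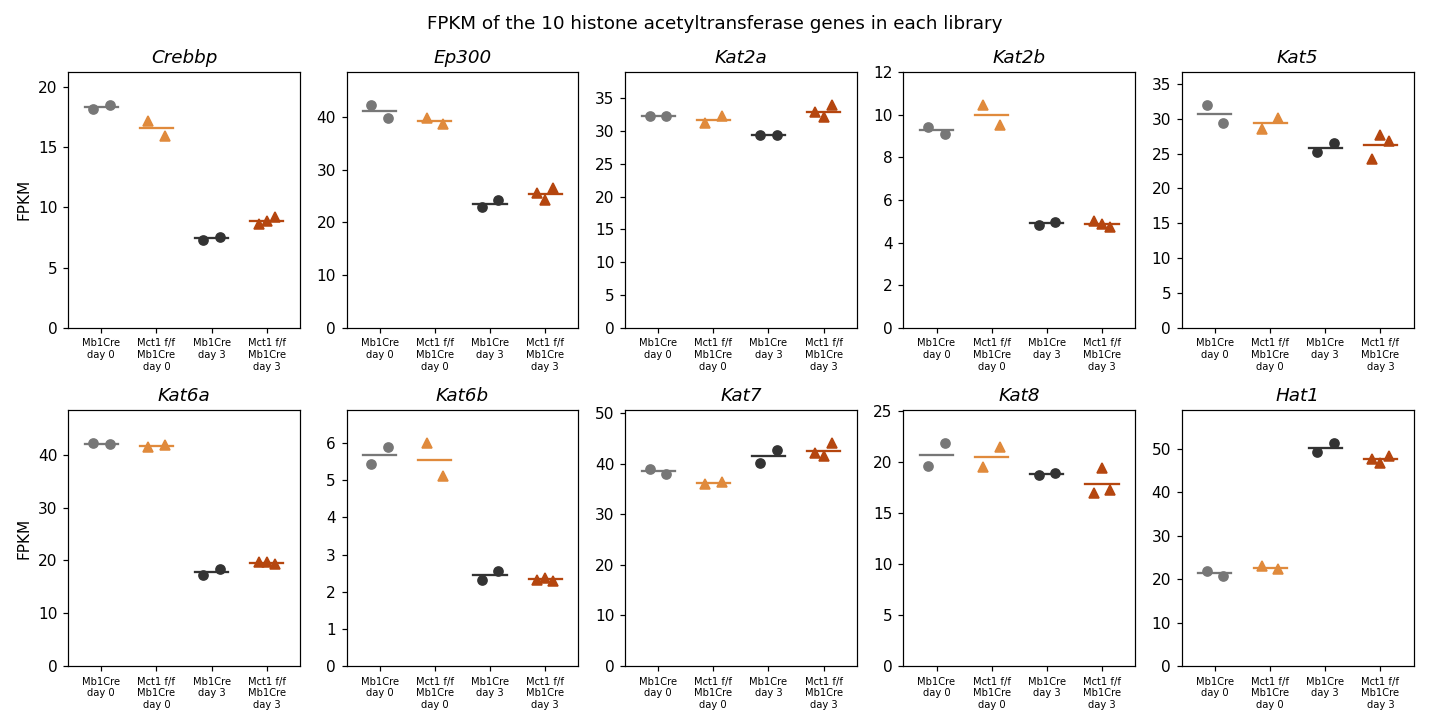
FPKM of each gene in each of the 9 libraries, with circles for *Mb1Cre*, triangles for *Mct1 f/f Mb1Cre*, and bars for group means. The vertical axes start at 0 and differ in range. *Crebbp*, *Ep300*, *Kat2b*, *Kat6a*, *Kat6b* and, by small margins, *Kat5* and *Kat8* are lower in every day 3 library than in any day 0 library, *Hat1* and, by a small margin, *Kat7* are higher, and *Kat2a* overlaps.

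On activation, 5 of the 10 genes were called lower and 1 higher in both genotypes. In control B cells *Crebbp*, *Kat6a*, *Kat6b*, *Kat2b* and *Ep300* were called lower and *Hat1* higher, against 33% of all tested genes called lower and 24.8% called higher. The same 6 genes were called in the same direction in *Mct1 f/f Mb1Cre* B cells, where 33.2% of tested genes were lower and 23.4% higher. They were also called there without *Mct1 f/f Mb1Cre* replicate 1 of day 0, where the 1 remaining day 0 library of that genotype is assumed to vary like the other groups. Each genotype was compared with its own day 0 libraries. The median log2 fold change was -0.51 over the 10 genes and -0.12 over all tested genes in control cells, and -0.40 and -0.14 in *Mct1 f/f Mb1Cre* cells. On adjusted p alone 8 and 9 of the 10 genes passed, where 84.6% and 85.5% of all tested genes did, so at this limit the members were close to the background. Libraries of the 2 days did not overlap for 10 of the 10 genes in control and 9 in *Mct1 f/f Mb1Cre* cells, beside 91.9% and 89.8% of all tested genes.

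*Crebbp* encodes CBP, the coactivator that acetylates H3K27. Control libraries of day 0 held 18.2 and 18.5 FPKM and those of day 3 held 7.29 and 7.57 FPKM. The *Mct1 f/f Mb1Cre* libraries held 17.2 and 15.9 FPKM before activation and 8.66, 8.87 and 9.18 FPKM after it. Each day 3 library was therefore below each day 0 library, and the day 3 mean was 40.5% of the day 0 mean in control and 53.7% in *Mct1 f/f Mb1Cre* cells. The log2 fold change was -1.20 ± 0.06 (SE, adjusted p = 5.17e-09) and -0.83 ± 0.05 (adjusted p = 5.18e-08), respectively.

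*Ep300*, the paralogue of *Crebbp*, fell less on this scale. Its level in control libraries was 42.3 and 39.9 FPKM before activation and 22.9 and 24.3 FPKM after it. In *Mct1 f/f Mb1Cre* libraries it was 39.9 and 38.8 FPKM before activation and 25.7, 24.3 and 26.5 FPKM after it. The days did not overlap, and the log2 fold change was -0.77 ± 0.06 (adjusted p = 1.39e-07) in control and -0.61 ± 0.05 (adjusted p = 4.87e-07) in *Mct1 f/f Mb1Cre* cells. After median-of-ratios scaling of the libraries the second value was -0.40, under the fold limit.

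The 2 enzymes of the SAGA and ATAC complexes parted on activation. *Kat2b* had 9.43 and 9.11 FPKM in control cells on day 0 against 4.84 and 4.98 FPKM on day 3. The *Mct1 f/f Mb1Cre* libraries gave 10.45 and 9.51 FPKM on day 0 against 5.0, 4.88 and 4.73 FPKM on day 3. The log2 fold change of *Kat2b* was -0.80 ± 0.07 (adjusted p = 4.96e-07) and -0.90 ± 0.06 (adjusted p = 7.13e-08). *Kat2a* stayed within a narrow band, between 31.2 and 32.4 FPKM in the day 0 libraries and between 29.4 and 34.0 FPKM on day 3. Its log2 fold change was -0.14 ± 0.05 (adjusted p = 0.0162) in control and 0.05 ± 0.04 (adjusted p = 0.239) in *Mct1 f/f Mb1Cre* cells, neither past the fold limit.

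The MYST genes split in the same way. *Kat6a*, which encodes MOZ, an acetyltransferase of H3 needed for blood stem cells, was at 42.16 and 42.14 FPKM in naive control libraries and at 17.2 and 18.4 FPKM in activated ones. The *Mct1 f/f Mb1Cre* libraries gave 41.6 and 41.8 FPKM when naive and 19.68, 19.67 and 19.26 FPKM when activated. The log2 fold change was -1.20 ± 0.05 (adjusted p = 8.54e-10) and -1.06 ± 0.04 (adjusted p = 1.02e-09), and libraries of a group differed little. *Kat6b* (MORF), the lowest of the 10 genes in every group, was at 5.45 and 5.90 FPKM in naive and at 2.32 and 2.56 FPKM in activated control cells. The *Mct1 f/f Mb1Cre* libraries had 5.99 and 5.12 FPKM when naive and 2.32, 2.38 and 2.30 FPKM when activated. Its log2 fold change was -0.96 ± 0.09 (adjusted p = 9.45e-07) and -0.97 ± 0.08 (adjusted p = 3.45e-07).

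*Kat5*, *Kat7* and *Kat8* stayed within the fold limit on activation. *Kat5* (TIP60), the catalytic subunit of NuA4, had 28.6 to 31.9 FPKM over the day 0 libraries and 24.2 to 27.6 FPKM on day 3, with log2 fold changes of -0.24 and -0.16 in control and *Mct1 f/f Mb1Cre* cells (adjusted p = 0.00700 and 0.0324). *Kat8* (MOF), the main H4K16 acetyltransferase, had 19.5 to 21.8 FPKM on day 0 and 16.9 to 19.4 FPKM on day 3, with log2 fold changes of -0.13 and -0.19 (adjusted p = 0.143 and 0.0262). *Kat7* (HBO1), which also acts at replication origins, had 36.0 to 39.0 FPKM on day 0 and 40.1 to 44.0 FPKM on day 3, with log2 fold changes of 0.10 and 0.23 (adjusted p = 0.0716 and 0.000569). These small values depend on how libraries are scaled. Median-of-ratios scaling gave *Kat2a* and *Kat8* a log2 fold change of 0.07 and 0.08 in control cells, and scaling to a common total gave *Kat7* -0.10 there. Scaling to a common total in *Mct1 f/f Mb1Cre* cells turned *Kat2a* to -0.12, and median-of-ratios scaling turned *Kat5* to 0.05 and *Kat8* to 0.02.

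*Hat1* was the 1 gene of the 10 called higher. Naive control cells had 21.9 and 20.7 FPKM, and activated ones 49.2 and 51.2 FPKM. Naive *Mct1 f/f Mb1Cre* cells had 22.9 and 22.3 FPKM, and activated ones 47.5, 46.8 and 48.2 FPKM. Every day 3 library was more than 2 times as high as the mean of the day 0 libraries of its genotype, at 236% of the control mean and 210% of the *Mct1 f/f Mb1Cre* mean on average. The log2 fold change was 1.20 ± 0.05 (adjusted p = 9.32e-10) and 1.04 ± 0.04 (adjusted p = 1.31e-09). *Hat1* took between 8.01% and 9.06% of the summed FPKM of the 10 genes on day 0 and between 20.6% and 22.7% on day 3, while the sum itself went from between 253 and 262 FPKM to between 217 and 232 FPKM.

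**Figure D2:**
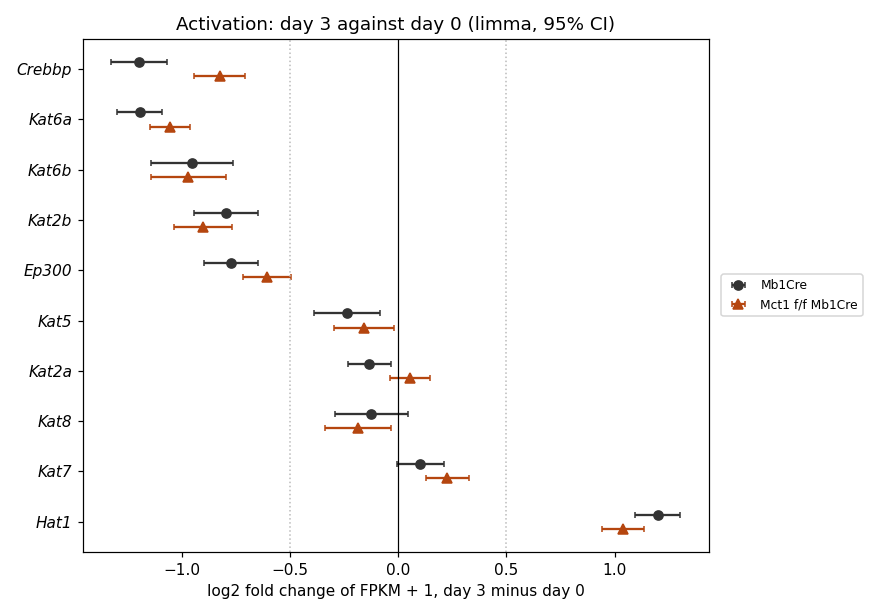
Log2 fold change of FPKM + 1 from day 0 to day 3 for each gene, with 95% confidence intervals from limma, circles for *Mb1Cre* and triangles for *Mct1 f/f Mb1Cre*, and dotted lines at the fold limit of 0.5. *Crebbp*, *Kat6a*, *Kat6b*, *Kat2b* and *Ep300* have their points left of the lower limit, *Hat1* lies right of the upper limit, and the other 4 genes lie between the limits.

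Changes were also read relative to the median of all genes. Measured from the median of -0.12, the control log2 fold changes were -1.08 for *Crebbp*, -1.07 for *Kat6a*, -0.83 for *Kat6b*, -0.67 for *Kat2b*, -0.65 for *Ep300* and 1.32 for *Hat1*. Scaling to a common total put the median of all tested genes at -0.31 in control cells and median-of-ratios scaling put it at 0.07. With the same settings 31.8% and 55.7% of all called genes were higher, against 42.9% in the values as deposited. For *Mct1 f/f Mb1Cre* cells these shares were 31.6%, 55.2% and 41.4%.

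The 3 pairs of paralogues were compared as ratios within each library, which no scaling of a library changes. The *Crebbp* to *Ep300* ratio was 0.431 and 0.463 in control and 0.432 and 0.411 in *Mct1 f/f Mb1Cre* libraries of day 0. On day 3 it was 0.319 and 0.311 in control and 0.337, 0.366 and 0.347 in *Mct1 f/f Mb1Cre* libraries. All 5 day 3 libraries lay below all 4 day 0 libraries, a mean log2 difference of -0.37 (p = 0.0159 by a two-sided exact permutation test, the lowest it can give for 4 libraries against 5, and 0.0238 adjusted over 3 ratios). The *Kat2a* to *Kat2b* ratio was between 2.99 and 3.55 in the day 0 libraries and between 5.90 and 7.18 on day 3. Here all day 3 libraries were higher, with a mean log2 difference of 0.95 and the same exact p of 0.0159. Without *Mct1 f/f Mb1Cre* replicate 1 of day 0 these log2 differences were -0.37 and 0.90 (exact p = 0.0357 for both, the smallest for 3 libraries against 5). For *Kat6a* to *Kat6b* the ratio was between 6.94 and 8.17 on day 0 and between 7.20 and 8.48 on day 3. The days overlapped and the log2 difference of 0.08 did not pass (exact p = 0.286). Ratios of other gene pairs were not taken as a background. For single genes, libraries of the days did not overlap for 91.9% of tested genes in control and 89.8% in *Mct1 f/f Mb1Cre* cells.

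**Figure D3:**
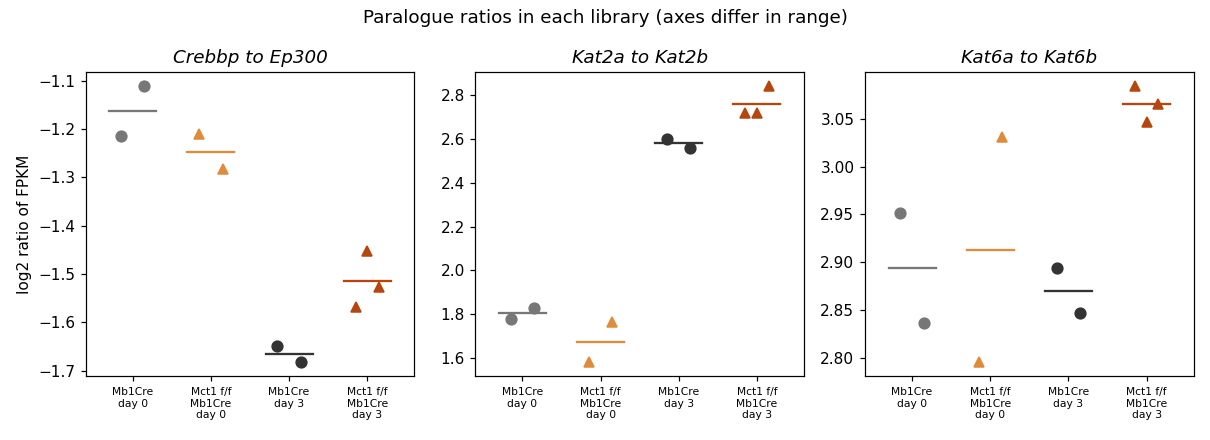
Log2 ratio of FPKM for each pair of paralogues in each library, with circles for *Mb1Cre*, triangles for *Mct1 f/f Mb1Cre*, bars for group means, and axes that differ in range. The *Crebbp* to *Ep300* ratio is lower and the *Kat2a* to *Kat2b* ratio higher in all day 3 libraries, and the *Kat6a* to *Kat6b* ratio overlaps between the days.

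On day 3 the genotypes differed by less than the fold limit in all 10 genes. No member was called between the genotypes, beside 2.42% of tested genes. On adjusted p alone *Crebbp* and *Kat2a* were higher in *Mct1 f/f Mb1Cre* cells (2 of 10, against 6.03% of tested genes higher and 9.21% lower). The *Crebbp* libraries given above did not overlap on day 3, and the *Mct1 f/f Mb1Cre* mean was 120% of the control mean (log2 fold change 0.23 ± 0.05, adjusted p = 0.0152). *Kat2a* had 29.37 FPKM in both control libraries and 32.9, 32.1 and 34.0 FPKM in the *Mct1 f/f Mb1Cre* ones (log2 fold change 0.16 ± 0.04, adjusted p = 0.0239). Libraries of the genotypes did not overlap for 4 of 10 genes, beside 47.1% of tested genes. The other 2 were *Kat6a* (log2 fold change 0.13, adjusted p = 0.0744) and *Hat1* (-0.08, adjusted p = 0.268). For *Ep300* the log2 fold change was 0.11 with a 95% confidence interval from -0.01 to 0.22, and the other 5 genes had log2 fold changes between -0.08 and 0.04.

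The 2 calls on adjusted p were sensitive to the libraries used. Without *Mb1Cre* replicate 1 of day 3 the adjusted p of *Crebbp* was 0.124, and without *Mb1Cre* replicate 2 or *Mct1 f/f Mb1Cre* replicate 3 of day 3 it was 0.0585 or 0.0558. The adjusted p of *Kat2a* was 0.130, 0.120 and 0.0846 without the same libraries, and 0.0505 without *Mct1 f/f Mb1Cre* replicate 1 of day 3.

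On day 0 none of the 10 genes differed by the test between the genotypes, under either rule, where 0.277% and 0.416% of all tested genes passed. At an unadjusted p under 0.05 only *Crebbp* passed (log2 fold change -0.14 ± 0.06, adjusted p = 0.397), lower in *Mct1 f/f Mb1Cre* cells at 90.4% of the control mean. Libraries of the genotypes did not overlap for 7 of 10 genes, beside 38.4% of tested genes, but with 2 libraries against 2 the log2 fold changes of these 10 genes lay only between -0.14 and 0.10. No member was called on day 0 without *Mct1 f/f Mb1Cre* replicate 1 either, and *Crebbp* then had a log2 fold change of -0.19 (adjusted p = 0.470).

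*Crebbp* was the 1 member of 10 for which the change from day 0 to day 3 differed between genotypes on adjusted p alone. By that rule 1020 of the 10823 tested genes passed in either direction, so 1 of 10 was close to the background. With a positive value, 3.82% of tested genes passed. By the fold limit no member was called, beside 3.23% of tested genes. The interaction of *Crebbp* was 0.37 ± 0.08 on the log2 scale (adjusted p = 0.0173). It was 0.42 (adjusted p = 0.0231) without *Mct1 f/f Mb1Cre* replicate 1 of day 0, the library that stood apart. It did not pass without *Mct1 f/f Mb1Cre* replicate 2 of day 0 (0.32, adjusted p = 0.0587) or without *Mb1Cre* replicate 1 of day 3 (0.35, adjusted p = 0.0725). *Kat2a* had an interaction of 0.19 (adjusted p = 0.0824), *Ep300* 0.17 (0.197), *Hat1* -0.16 (0.146) and *Kat6a* 0.14 (0.196). The interaction, the activation and the genotype comparisons use the same libraries, so they are not separate evidence.

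**Figure D4:**
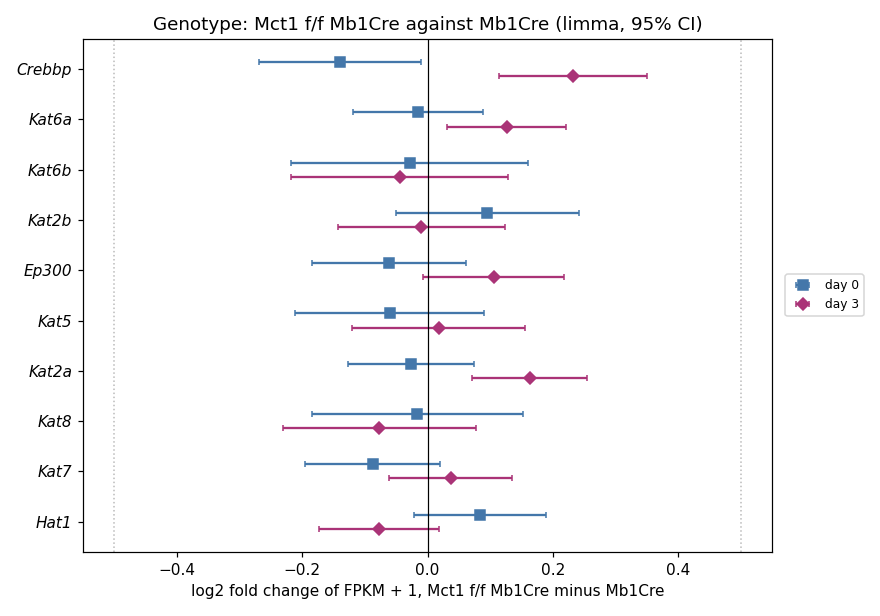
Log2 fold change of FPKM + 1 between *Mct1 f/f Mb1Cre* and *Mb1Cre* for each gene on day 0 (squares) and day 3 (diamonds), with 95% confidence intervals from limma and dotted lines at the fold limit of 0.5. All values lie between the limits. The day 3 intervals of *Crebbp*, *Kat2a* and *Kat6a* lie above 0, and the day 0 interval of *Crebbp* lies below 0.

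The genes are spread over the genome. In the RefSeq annotation of GRCm38.p6, *Crebbp* lies on chromosome 16 (4081334 to 4213957), *Ep300* on 15 (81586209 to 81652077), *Kat2a* and *Kat7* on 11 (100704746 to 100712485 and 95271853 to 95310246) and *Kat2b* on 17 (53566774 to 53672721). *Kat5* lies on 19 (5603014 to 5611556), *Kat6a* on 8 (22859442 to 22943259), *Kat6b* on 14 (21499216 to 21672478), *Kat8* on 7 (127912517 to 127925838) and *Hat1* on 2 (71389260 to 71441622). None lies on a sex chromosome.

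Promoter sequences (250 bases before to 50 bases after each start) came from RefSeq with the build GRCm38.p6. They matched 9 of the 10 genes in 13 promoters, and *Kat6a* was the other gene. They were searched on both strands for TTTNNCGC (a loose pattern called E2F-type here, N any base), CCGGAAG (an ETS-type site), CACGTG (an E-box) and CCAAT. These motifs occurred in 5.17%, 8.86%, 7.15% and 37.4% of 32851 promoters of all genes, and in 2, 4, 2 and 6 of the 13 promoters of the matched genes. *Hat1*, the gene called higher, held the ETS-type, E-box and CCAAT motifs, and *Kat5*, which stayed within the fold limit, held the same 3. *Kat7* and *Kat8*, also within the limit, held the ETS-type and CCAAT motifs, *Kat2b* held only CCAAT, and *Crebbp* and *Kat6b* held none of these letters in the window. The matches shown are the 3 of *Hat1*, the E-box of *Kat5* and the TTTNNCGC matches of *Ep300* and *Kat2a*, with the motif in capitals, 5′ to 3′ on the strand of the gene. No match shown overlaps another, and a match is a description of letters, not of a bound site.
*Hat1* E-box (plus strand, chr2:71389067-71389096): tgagggcatcctCACGTGcggtggctaggc
*Hat1* CCAAT, read as its reverse complement (plus strand, chr2:71389165-71389194): cttctccctctcATTGGttcgtggctcgcc
*Hat1* ETS-type, read as its reverse complement (plus strand, chr2:71389222-71389251): ccttgcggtcaCTTCCGGcccgggagcgcg
*Kat5* E-box (minus strand, chr19:5610263-5610292): cccggtgggcgtCACGTGacagactcggcg
*Ep300* E2F-type (plus strand, chr15:81586173-81586202): tcctctcccccTTTTTCGCccccgcctcct
*Kat2a* E2F-type, read as its reverse complement (minus strand, chr11:100712508-100712537): aaggatgggaaGCGGCAAAggaagactacg

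The partner genes of these enzymes were read from 7 lists with 77 different genes, all of them tested. In control cells 17 of the 77 were called higher and 19 lower on activation, and in *Mct1 f/f Mb1Cre* cells 21 and 16. Of all tested genes 24.8% were higher and 33% lower in control cells and 23.4% and 33.2% in *Mct1 f/f Mb1Cre* cells. The counts of each list are a description to be read beside these shares. The median log2 fold change over the lists was -0.07 and 0.00.

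The Hat1 list moved in 1 direction, as all 5 of its genes were called higher in both genotypes, beside 24.8% and 23.4% of tested genes. Its median log2 fold change was 1.42 in control and 1.34 in *Mct1 f/f Mb1Cre* cells. *Asf1b*, a chaperone that hands H3-H4 to the replication machinery, went from a mean of 11.6 to 65.8 FPKM in control cells (log2 fold change 2.41 ± 0.06, adjusted p = 1.93e-11). *Nasp*, which keeps soluble H3-H4, went from 23.3 to 72.9 FPKM (1.60 ± 0.05). *Rbbp7*, which encodes the WD40 partner of HAT1 and lies on the X chromosome, went from 57.0 to 153.5 FPKM (1.42 ± 0.05). *Asf1a* went from 10.46 to 18.0 FPKM (0.73 ± 0.05). The corresponding log2 fold changes in *Mct1 f/f Mb1Cre* cells were 2.36, 1.57, 1.34 and 0.503, the last only just over the fold limit.

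Among the lists of the MYST complexes, NuA4/TIP60 and BRPF and JADE held calls in both directions. The MSL and NSL list held only lower calls. Over all tested genes 24.8% were called higher and 33% lower in control cells, and 23.4% and 33.2% in *Mct1 f/f Mb1Cre* cells. Of the 17 NuA4/TIP60 genes 4 were called higher and 3 lower in each genotype. *Morf4l2*, on the X chromosome, went from 38.1 to 113.7 FPKM in control cells (log2 fold change 1.55). The ATPase genes *Ruvbl1* and *Ruvbl2* rose by 1.14 and 1.11, whereas the scaffold gene *Epc1* went from 34.0 to 12.7 FPKM (-1.35). Of the 9 partner genes in the BRPF and JADE complexes of MOZ, MORF and HBO1, 2 were called higher and 4 lower in control cells. In *Mct1 f/f Mb1Cre* cells 2 were called higher and 3 lower. *Ing4*, a reader of methylated H3K4, went from 40.7 to 12.2 FPKM in control cells (-1.66), and *Brpf3* (-1.11), *Brd1* (-0.77) and *Ing5* (-0.67) also fell. *Ing5* did not pass the fold limit in *Mct1 f/f Mb1Cre* cells (-0.44). Of the 11 MSL and NSL genes that work with *Kat8*, none was called higher and 4 were called lower in each genotype. *Kansl1* went from 38.8 to 15.9 FPKM in control cells (-1.23), followed by *Msl2* (-0.83), *Ogt*, the O-GlcNAc transferase on the X chromosome (-0.80), and *Msl1* (-0.77).

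Among the 23 SAGA and ATAC genes, 2 were called higher and 3 lower in control cells and 5 and 3 in *Mct1 f/f Mb1Cre* cells. The shares of all tested genes were 24.8% higher and 33% lower in control and 23.4% and 33.2% in *Mct1 f/f Mb1Cre* cells. *Tada2a*, an adaptor of the ATAC complex, rose from 3.90 to 11.4 FPKM in control cells (log2 fold change 1.33). The SAGA adaptor *Tada2b* fell from 14.03 to 6.91 FPKM (-0.93), as did *Atxn7* (-1.15) and *Supt20* (-0.99). Of the 7 coactivators that act with CBP and p300, 2 were called higher and 3 lower in control cells. The methyltransferase gene *Carm1* (0.90) and *Cited2*, whose product binds CBP and p300 (0.84), rose, and the nuclear receptor coactivators *Ncoa2* (-0.66) and *Ncoa1* (-0.63) fell. In *Mct1 f/f Mb1Cre* cells 3 were higher and 1 was lower, and *Ncoa1* was just under the limit there (-0.49). Of the 7 other enzymes with reported histone acetyltransferase activity, 2 were called higher and 2 lower in each genotype, with *Elp3* (0.76) and *Naa40* (0.66) higher and *Naa60* (-1.09) and *Clock* (-0.63) lower in control cells.

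**Figure D5:**
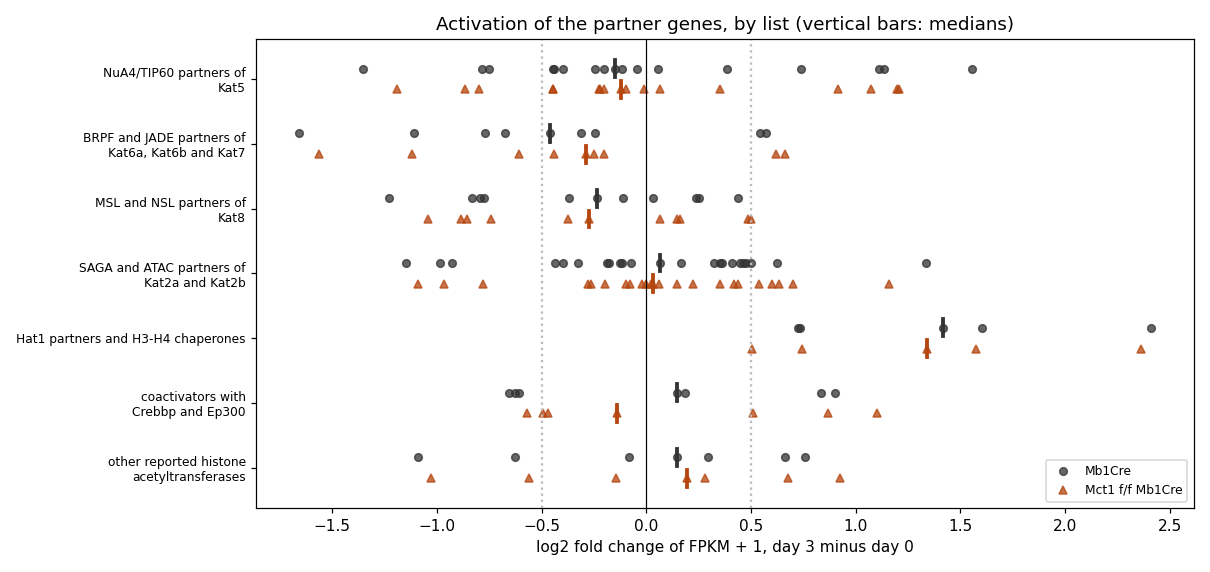
Log2 fold change of FPKM + 1 from day 0 to day 3 for each partner gene, by list, with circles for *Mb1Cre*, triangles for *Mct1 f/f Mb1Cre*, vertical bars for list medians and dotted lines at 0.5. All 5 genes of the Hat1 list lie above 0.5 in both genotypes, and the other 6 lists hold genes on both sides of 0.

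None of the 77 partner genes was called between the genotypes on day 3 or on day 0. On adjusted p alone 3 were higher and 4 lower in *Mct1 f/f Mb1Cre* cells on day 3, shares below the 6.03% and 9.21% of all tested genes, and none passed on day 0. For the interaction, 4 of the 77 passed on adjusted p alone, 1 with a positive and 3 with a negative value. Of all 10823 tested genes 413 and 607 did so, and the 4 genes were named after their values were seen. *Crtc2*, a CREB coactivator, had an interaction of -0.29 (adjusted p = 0.0167), *Morf4l2* of -0.35 (0.0158) and the ATAC subunit gene *Mbip* of -0.37 (0.0340), whereas the p160 coactivator *Ncoa3* had 0.32 (0.0176).

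Averaged over the genotypes, *Hat1* rose most and *Kat6a* fell most, although in control cells alone *Crebbp* fell as much (-1.20 for both). The genes whose log2(FPKM + 1) followed *Hat1* and *Kat6a* most closely over the 9 libraries were found among the other tested genes. The likeness is a description, since all 9 points share the step between the days. For *Hat1* they included *Ezh2*, *Mad2l1*, *Tpx2* and *Cdca2*, with Pearson's r between 0.9993 and 0.9997. *Ezh2*, the H3K27 methyltransferase of PRC2, had 15.2 to 17.6 FPKM on day 0 and 71.7 to 86.7 FPKM on day 3, and *Mad2l1* and *Tpx2* are mitotic genes. For *Kat6a* they were *Chst15*, *Morc3*, *Ets1*, *Pecam1* and *Ripor2*, with r between 0.9992 and 0.9996. *Ets1*, a lymphoid transcription factor, had 205 to 222 FPKM on day 0 and at most 38.7 FPKM on day 3.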

How the data were processed

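RNA from 9 libraries of primary B cells was sequenced, and the authors deposited FPKM values for 17596 genes. By the methods, assembly and analysis were done by the sequencing provider, and the submitters' processing notes name Bowtie2, GRCm38 and mm10 without roles. The RNA reagent differs between the labels (TRNzol) and the methods (a column kit). FPKM hold no counts, so depth is unknown, and precision rests on 2 or 3 libraries per group. All table columns used were matched to a library by its label. From the deposited FPKM, log2(FPKM + 1) was computed without scaling, and genes averaging 1 FPKM or more (10823) were tested with limma 3.58.1 (R 4.3.3), with 4 group means, a trend and Benjamini-Hochberg adjustment over all genes.

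Paralogue ratios used no added value and an exact permutation test (scipy 1.17.1, Python 3.11.15). Figures were drawn with matplotlib 3.10.9. The limma procedure was tested on simulated data for the genotype comparison on day 3 alone, with changes larger than the fold limit. Smaller changes, the other comparisons and the ratio test were not simulated. Named were all 10 members, from each list any gene called between the genotypes on day 3 and at most 4 called for activation in control cells with the largest change, and for the member with the largest rise and the one with the largest fall (mean of both genotypes) the 5 genes most like it, of which 1 is not reported here. The members and lists were chosen with earlier results of these data known. Alternatives were other added values, filters, scalings, fold limits, fits and each library left out.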

Additional observations from a re-analysis of the deposited data

Results flagged for a closer look

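*Crebbp* was flagged because its change on activation differed between the genotypes, with an interaction of 0.37 on the log2 scale (adjusted p = 0.0173, limma). On adjusted p alone 1020 of the 10823 tested genes passed for the interaction, so 1 of the 10 members was close to the background. No member passed the fold limit for the interaction. The mean of *Crebbp* fell from 18.3 to 7.43 FPKM in control and from 16.6 to 8.90 FPKM in *Mct1 f/f Mb1Cre* cells. Over the alternatives its adjusted p lay between 0.0130 and 0.0725. It missed 0.05 with the replicate number as a block, without *Mct1 f/f Mb1Cre* replicate 2 of day 0 and without *Mb1Cre* replicate 1 of day 3. Several alternatives (filters, no trend, fold limits) cannot move this estimate. Without *Mct1 f/f Mb1Cre* replicate 1 of day 0, the library with the most *S100a9* (513.5 FPKM, against 166 to 232 FPKM in the other day 0 libraries), it was 0.42 (adjusted p = 0.0231).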

How the results depend on the processing

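The counts of members called were the same with each library left out in turn, where a library outside the groups compared can change only the spread. With no fold limit, 2 members were called between the genotypes on day 3 and 1 for the interaction, and with a limit of 1, 3 were called for activation in control and 2 in *Mct1 f/f Mb1Cre* cells. *Kat6b* was not tested with a filter of 5 FPKM. *Ep300* lost its activation call in *Mct1 f/f Mb1Cre* cells after median-of-ratios scaling. For all genes, the 262 called between the genotypes on day 3 became 421 and 120 with 0.1 and 5 FPKM added, 54 with a limit of 1 and 1650 with none. The 30 called on day 0 became 102 without *Mb1Cre* replicate 2 of day 0, 67 without *Mct1 f/f Mb1Cre* replicate 2 of day 0, 10 without a filter, 2 with only those groups in the fit and 16 with a limit of 1. The 350 called for the interaction became 156 with 5 FPKM added, 56 with a limit of 1 and 1020 with none. With a limit of 1, 6258 and 6120 genes called for activation in control and *Mct1 f/f Mb1Cre* cells became 3191 and 2994, and with none the second became 9258. The cause was not tested beyond what the limits fix.

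Within control libraries the log2 difference between the days was -0.50 for *Crebbp* to *Ep300* and 0.78 for *Kat2a* to *Kat2b*, and within *Mct1 f/f Mb1Cre* ones -0.27 and 1.09, with no test. The *Kat6a* to *Kat6b* difference turned to -0.15 with 1 FPKM added, which lowers the ratio of the low *Kat6b*. Libraries that share a replicate number did not vary together (r between -0.12 and 0.09), so the numbers were not taken to pair them. With the replicate number as a block no count of members moved, the adjusted p of *Crebbp* and *Kat2a* on day 3 was 0.0835 and 0.120, and that of the *Crebbp* interaction 0.0693. Differences within a number and genotype were -0.38 for *Crebbp* to *Ep300* and 0.91 for *Kat2a* to *Kat2b* (exact p = 0.125, the smallest 4 differences allow).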
